A study of Mus musculus with 32 samples.

Results

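The ionotropic and metabotropic receptor subunits for glutamate and GABA were followed through whole brain tissue and sorted CNS-associated macrophages (CAMs) of mice after ischemic stroke. The rule that defines the members uses gene names and no measured value, and 47 of the 33280 genes in each table met the rule, of which 26 were glutamate receptor subunits and 21 were GABA receptor subunits. Glutamate is the main excitatory transmitter of the brain and GABA the main inhibitory one. Ionotropic receptors (AMPA, kainate and NMDA receptors for glutamate, GABA-A receptors for GABA) are ion channels assembled from several subunits, whereas metabotropic glutamate (mGlu) receptors and GABA-B receptors couple to G proteins. Neurons carry most of these subunits, but astrocytes and oligodendrocyte precursors are known to express some of them, so that the same gene list describes both the neuronal content of a tissue slice and the non-neuronal RNA in a sorted preparation.

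All 8 mice were wild type and all had an induced stroke. In the BLZ945 group, 4 mice had received BLZ945, an inhibitor of the CSF-1 receptor on which microglia and CAMs depend, at 200 mg/kg for 7 days, and the stroke followed 8 weeks later. The other 4 mice formed the CTL group, which received vehicle. Samples were taken 1 day after the stroke from the ipsilateral hemisphere, on the side of the occlusion, and from the contralateral hemisphere of each mouse, so that no group is free of stroke and the contralateral hemisphere of the same animal served as the reference. The occlusion was made by injecting thrombin into the middle cerebral artery, which forms a clot in place. The sample labels give neither age nor sex. Mice are named here as in the labels, with A2, A3, A4 and B1 in the CTL group and C2, C3, C4 and D1 in the BLZ945 group.

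Tissue libraries held 9288717 to 12781505 counts and the 14 CAM libraries used here held 7397393 to 11081409. A level of 3 counts, the upper limit allowed by a count of 0, corresponds to 0.235 to 0.323 CPM (counts scaled to a library total of 1000000) in tissue and 0.271 to 0.406 CPM in CAMs, covering counting error only. The ipsilateral CAM libraries of A3 and C2 held 54055 and 55155 counts, carry a label of degraded RNA and were left out. For the tissue of A3 the sample labels and the names of the data columns disagree on which hemisphere is ipsilateral; the labels were followed, and values with the hemispheres exchanged are given where they turn the direction of a printed mean or fitted difference. CAM markers were present in the sorted cells, with a summed level of 1621 to 8697 CPM against 6.45 to 21.8 CPM in tissue. Microglial markers summed to 8285 to 35310 CPM in the same CAM libraries.

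Members differed in tissue level by several orders of magnitude. Divided by the length of each gene's exons, the GABA-B subunit Gabbr1, the transmitter-binding subunit of that receptor, had the highest level with 123.3 ± 10.03 CPM per kb (SD, n = 16 libraries). The AMPA receptor subunit Gria1 followed with 81.3 CPM per kb and Gabbr2, the G protein-coupling partner of Gabbr1, with 76.8 CPM per kb. Lower levels were those of the kainate receptor subunit Grik5 at 55.1 and the obligatory NMDA receptor subunit Grin1 at 51.9 CPM per kb. The ranges of Grik5 and Grin1 over libraries overlapped, so their order is within their spread. Among the mGlu receptors Grm3 had the highest level, at 24.2 CPM per kb. At the low end, Grm6, known from the retina, had 3 counts over all 16 tissue libraries and Gabrp had 2, and neither was tested. The remaining 45 members passed the filter on low counts in tissue, and 41 of the 47 had a mean of at least 1 CPM.

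The first comparison asked whether receptor subunit RNA differed between the hemispheres 1 day after stroke. No member passed the call rule, an adjusted p under 0.05 with a log2 fold change beyond 0.59, in edgeR's two-sided quasi-likelihood test in CTL mice (0 of 45 members, against 0.443% of all genes tested), in BLZ945 mice (0 of 45, against 1.16%) or in the average over both treatments (0 of 45, against 2.01%). At an unadjusted p under 0.05 the counts of members were 0, 6 and 5 of 45, or 0%, 13.3% and 11.1%, against 6.23%, 10.8% and 14.3% of all genes. DESeq2 with the same threshold also called 0 members in each, where it called 0.733%, 1.84% and 2.34% of all genes. The genes called lay almost all in the direction of higher ipsilateral levels, with 367 higher and 14 lower in the average. The astrocyte gene Gfap, one of them, had a log2 fold change of 1.71 in the average. The 95% confidence interval of the log2 fold change in the average lay within ±0.59 for 36 of the 45 members. In bulk tissue, fewer cells of a type and less RNA per cell cannot be told apart.

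Below the threshold, the values of the receptor subunits leaned to the contralateral side. In the average, 37 of 45 members (82.2%) had a fitted log2 fold change below 0, against 52.3% of all genes tested, and the median was −0.08 for the members and −0.01 for all genes. In CTL mice 36 of 45 were below 0 with a median of −0.10, and in BLZ945 mice 37 of 45 with a median of −0.09. With the hemispheres of A3 exchanged, 26 of 45 were below 0 in CTL mice and 32 of 45 in the average, with medians of −0.025 and −0.047. The direction depends on the scaling, since with library sizes replaced by the sum of 15 pan-neuronal markers the median of all genes moved to 0.10 and that of the members to 0.03, with 18 of 45 members below 0. Relative to all genes, the members' median was −0.07 with the standard scaling and −0.08 with the neuronal one. The summed level of the 47 members was lower in the ipsilateral hemisphere in 7 of 8 mice, with a mean log2 ratio of −0.07 ± 0.06 (SD, n = 8 mice). A4 was the exception, at 7407 CPM ipsilateral and 7159 CPM contralateral. With the hemispheres of A3 exchanged the sum was lower in 6 of 8 mice, with a mean log2 ratio of −0.036 ± 0.095.

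**Figure D1:**
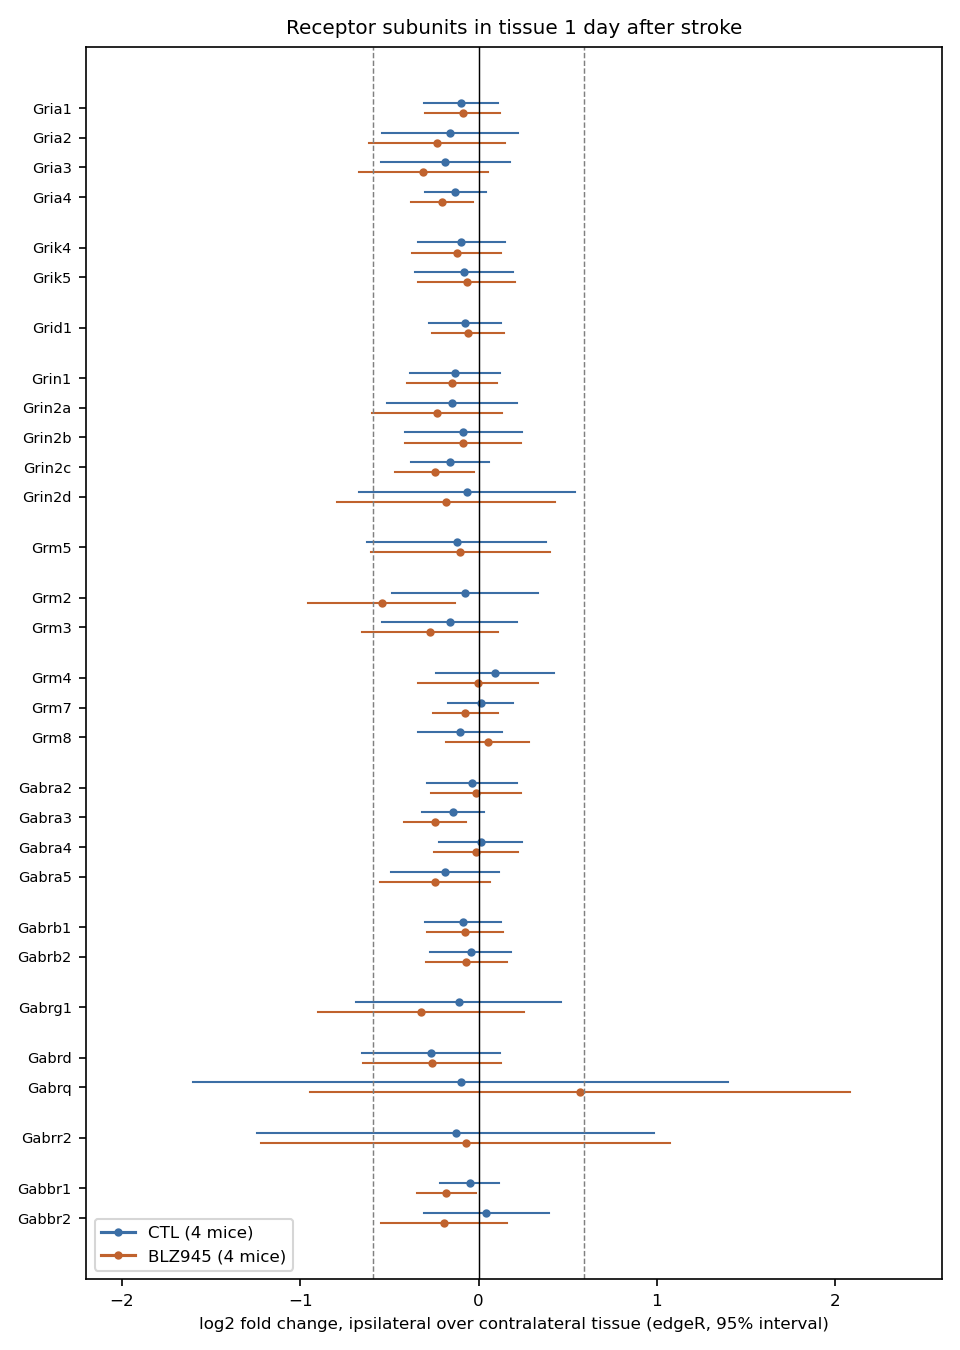
Fitted log2 fold changes, ipsilateral over contralateral tissue, for members named in the text with at least 1 CPM (points, CTL in blue and BLZ945 in orange, bars 95% confidence intervals from edgeR, dashed lines at ±0.59). Most points lie between 0 and −0.59, and no member passed the call rule in either treatment.

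Among AMPA receptor subunits, the summed level was lower in the ipsilateral hemisphere in 7 of 8 mice (mean log2 ratio −0.12 ± 0.11). With the hemispheres of A3 exchanged it was lower in 6 of 8 (−0.07 ± 0.16). Gria2, whose edited form makes the channel impermeable to calcium, had contralateral levels of 354, 387, 451 and 359 CPM in CTL mice A2, A3, A4 and B1 and 357, 495, 474 and 400 CPM in BLZ945 mice C2, C3, C4 and D1. The ipsilateral levels in the same order were 361, 287, 502 and 271 CPM in CTL and 321, 436, 427 and 336 CPM in BLZ945 mice. The hemispheres overlapped in both treatments, and each BLZ945 mouse had the lower value on the ipsilateral side. The fitted difference in the average was −0.20 on the log2 scale (SE 0.13, adjusted p = 0.554 by edgeR).

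Gria3, a second AMPA receptor subunit, had 206, 198, 234 and 206 CPM in contralateral and 188, 169, 247 and 156 CPM in ipsilateral tissue of CTL mice. In BLZ945 mice it had 209, 320, 251.1 and 208 CPM contralateral and 188, 261, 191 and 186 CPM ipsilateral. It was lower on the ipsilateral side in 7 of 8 mice, by −0.25 on the log2 scale (SE 0.12, adjusted p = 0.369 by edgeR), while the groups overlapped. Per length, Gria1 made up 52.8 ± 3.8% of AMPA subunit RNA in contralateral and 55.5 ± 4.7% in ipsilateral tissue of BLZ945 mice (SD, n = 4) and was higher on the ipsilateral side in all 4. In CTL mice the share was 58.3 ± 3.0% and 59.7 ± 3.2%, higher in 2 of 4 mice, and the mean difference turned to −0.338 percentage points with the hemispheres of A3 exchanged. Gria1 itself differed by −0.09 (SE 0.07, adjusted p = 0.636 by edgeR), a sign that turns to 0.02 with the neuronal scaling.

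Gria4, the AMPA subunit with the lowest level per length, ranged from 84.8 to 120 CPM and was lower on the ipsilateral side in 7 of 8 mice, with a log2 difference of −0.17 (adjusted p = 0.155 by edgeR).

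NMDA receptors combine Grin1 with Grin2 or Grin3 subunits that set the kinetics of the channel. Grin1 had 482, 460, 556 and 540 CPM in contralateral and 458, 463, 482 and 501 CPM in ipsilateral CTL tissue. In BLZ945 tissue the levels were 487, 611, 560 and 466 CPM and 411, 583, 512 and 484 CPM. The hemispheres overlapped in both groups (average log2 difference −0.14, SE 0.08, adjusted p = 0.513 by edgeR). Grin2b, prominent in the young forebrain and retained in the adult cortex and hippocampus, ranged from 391 to 661 CPM and differed by −0.09 (adjusted p = 0.826 by edgeR), a value that turned to 0.01 with the hemispheres of A3 exchanged and to 0.02 with the neuronal scaling. Grin2a made up 35.0 ± 2.2% of Grin2a and Grin2b RNA per length in contralateral and 33.2 ± 2.8% in ipsilateral tissue (SD, n = 8) and was lower ipsilaterally in 6 of 8 mice.

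Grin2c, known from cerebellar granule cells and astrocytes, was one of the members with an unadjusted p under 0.05 in BLZ945 mice (log2 −0.25, SE 0.10, adjusted p = 0.385 by edgeR). Its contralateral levels there were 61.8, 53.8, 52.1 and 61.3 CPM and its ipsilateral levels 49.5, 51.9, 43.2 and 55.2 CPM. Each of the 4 mice had the lower value on the ipsilateral side, while the groups overlapped.

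In the average over both treatments, the mGlu receptor Grm2 had the largest fitted difference of the members over 1 CPM (log2 −0.31). Grm2, a presynaptic inhibitory receptor of neurons, had 54.8, 67.8, 50.8 and 49.0 CPM in contralateral and 40.4, 48.9, 31.01 and 37.6 CPM in ipsilateral tissue of BLZ945 mice. These groups did not overlap, although the nearest values, 48.9 and 49.0 CPM, were almost equal. In CTL mice Grm2 had 60.8, 43.3, 35.2 and 58.7 CPM contralateral and 49.2, 43.3, 36.8 and 63.5 CPM ipsilateral, with full overlap.

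The fitted log2 difference of Grm2 was −0.54 in BLZ945 mice (95% confidence interval −0.96 to −0.13, adjusted p = 0.26 by edgeR) and −0.08 in CTL mice (interval −0.48 to 0.33). Without the mouse as a block, the difference between these 2 responses was −0.47 (interval −1.05 to 0.11, adjusted p = 1 by edgeR), so a dependence on treatment was not shown. Grm3, the other group II receptor, found on astrocytes as well as neurons, had 70.0, 93.0, 81.8 and 68.8 CPM contralateral and 62.8, 75.9, 60.1 and 70.8 CPM ipsilateral in BLZ945 mice, which overlapped. In CTL mice it had 64.5, 80.2, 97.7 and 68.5 CPM contralateral and 51.7, 66.5, 98.4 and 67.3 CPM ipsilateral. Per length, the share of Grm2 in the sum of Grm2 and Grm3 was 4.04 ± 1.37 percentage points lower on the ipsilateral side in BLZ945 mice, in 4 of 4 mice, and 1.67 ± 1.61 points higher in CTL mice, in 4 of 4. The CTL value rests on A3, since with its hemispheres exchanged the mean in CTL mice was −0.172 ± 2.50 points and 3 of 4 mice were higher. The contrast between the treatments in this share was noticed in the data and was not tested.

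The group I receptor Grm5, which signals through phospholipase C, differed by −0.11 and the group III receptor Grm4 by 0.05 on the log2 scale in the average (adjusted p = 0.859 and 0.929 by edgeR), the sign of Grm4 turning with the hemispheres of A3 exchanged (−0.02). Of the kainate and delta subunits, Grik4, Grik5 and Grid1 differed by −0.11, −0.07 and −0.07, and these 3 turned positive with the neuronal scaling.

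**Figure D2:**
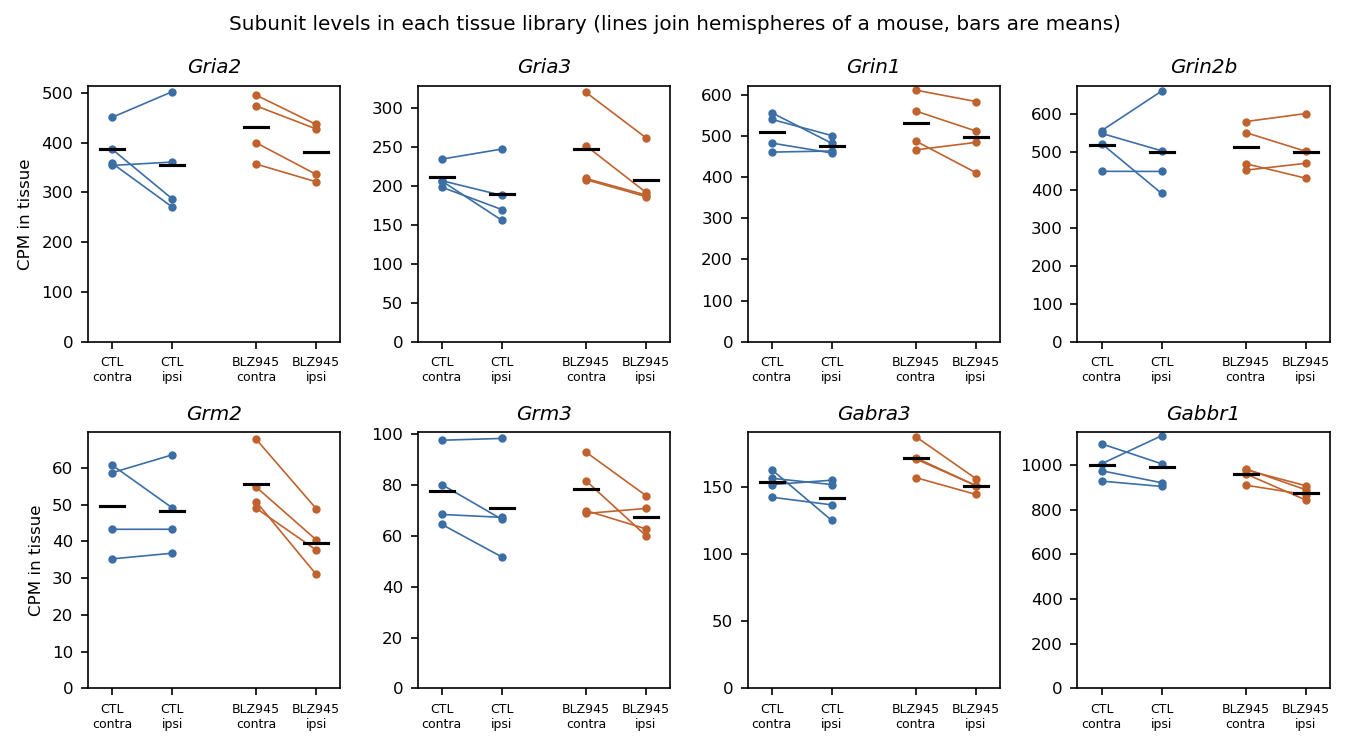
Tissue levels in CPM of Gria2, Gria3, Grin1, Grin2b, Grm2, Grm3, Gabra3 and Gabbr1 in every library, by treatment and hemisphere, with lines joining the hemispheres of a mouse and bars at group means. In BLZ945 mice the Grm2 values of the hemispheres do not overlap (31.01 to 48.9 CPM ipsilateral, 49.0 to 67.8 CPM contralateral), and those of Gria3 do.

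GABA-A receptors are assembled mainly from alpha, beta and gamma or delta subunits. The alpha subunit Gabra3 had 172, 187, 157 and 171 CPM in contralateral and 151, 156, 144 and 151 CPM in ipsilateral tissue of BLZ945 mice, which did not overlap. In CTL mice the levels were 142, 156, 152 and 163 CPM and 137, 152, 155 and 125 CPM, which did. It had the smallest adjusted p of all members in the average (log2 −0.19, SE 0.06, adjusted p = 0.0927 by edgeR). Gabra5, known from extrasynaptic receptors of the hippocampus, differed by −0.22 (adjusted p = 0.352) and Gabrd, the delta subunit of tonic inhibition, by −0.26 (adjusted p = 0.372), both by edgeR. Gabrb1, at −0.08, turned positive with the neuronal scaling and with the hemispheres of A3 exchanged. The GABA-A sum was lower on the ipsilateral side in 5 of 8 mice, and in 4 of 8 with the hemispheres of A3 exchanged.

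Gabbr1 had 979, 911, 984 and 961 CPM in contralateral and 908, 868, 890 and 844 CPM in ipsilateral tissue of BLZ945 mice. In CTL mice it had 1096, 929, 975 and 1006 CPM contralateral and 1006, 905, 922 and 1132 CPM ipsilateral. The BLZ945 hemispheres did not overlap and the CTL hemispheres did, with B1 as the mouse in which the ipsilateral value was higher. The log2 difference was −0.18 (SE 0.08, adjusted p = 0.4 by edgeR) in BLZ945 and −0.05 (adjusted p = 0.999) in CTL mice. Gabbr2 ranged from 396 to 683 CPM, with both ends in CTL mice, and differed by −0.07 in the average (adjusted p = 0.871 by edgeR).

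Because both hemispheres came from the same animals, the fit was repeated with the mouse as a block. In it, too, edgeR called 0 of 45 members in CTL mice (background 0.975%), in BLZ945 mice (2.18%) and in the average (2.42%), as in the unblocked fit. By adjusted p alone, with no threshold on the size, the blocked fit (edgeR) passed 8 of 45 members in the average, all lower in ipsilateral tissue, among them Gria2, Gria3, Grin2a, Grm2, Grm3, Gabra3 and Gabra5, where 3.02% of all genes passed in that direction. The log2 difference was −0.31 for Grm2 (adjusted p = 0.00427) and −0.19 for Gabra3 (adjusted p = 0.0211). No blocked fit with the hemispheres of A3 exchanged is given here. A3 had the lowest log2 ratio of the 8 mice for Gria2 (−0.43), Grin2a (−0.46) and Gabra5 (−0.39), but not for Gria3, Grm2, Grm3 or Gabra3. In the unblocked fit of CTL mice, Gria2 and Grin2a turned to 0.04 and 0.06 with that exchange. In BLZ945 mice alone, Grm2 (log2 −0.55, adjusted p = 0.00104) and Gria3 (log2 −0.30, adjusted p = 0.0263) passed, against 1.45% of all genes in that direction, and in CTL mice 0 members did, against 0.179%. Without the block, 0 members passed by adjusted p alone in CTL mice, BLZ945 mice and the average, where 0.49%, 1.36% and 3.05% of all genes passed. In the interaction the blocked fit (edgeR) passed 0 of 45 members by adjusted p alone, against 0% of all genes. At an unadjusted p under 0.05 there were 2 members in it, against 451 of 18968 genes. This reading of the blocked fit was added after the data were seen.

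Neuronal marker lists differed in direction between the hemispheres. The sum of the excitatory neuron markers, 10 genes, was lower on the ipsilateral side in 8 of 8 mice (mean log2 ratio −0.29 ± 0.14, sums of 4284 to 8788 CPM), and the sum of the pan-neuronal markers in 6 of 8 (−0.07 ± 0.07, 11720 to 14400 CPM). With the hemispheres of A3 exchanged the excitatory sum was lower in 7 of 8 mice (−0.24 ± 0.22). Inhibitory neuron markers were lower in 2 of 8 mice (mean log2 ratio 0.16 ± 0.20) and hippocampal markers in 1 of 8 (0.53 ± 0.28). Striatal neuron markers were lower in 4 of 8 mice (0.31 ± 0.52), thalamic ones in 3 of 8 (0.13 ± 0.51) and cerebellar ones in 4 of 8 (−0.06 ± 0.42). None of the 10 excitatory markers was called, and their median log2 difference was −0.23, with 10 of 10 below 0. The part of these cell types in the receptor values was not tested. Auxiliary subunits of AMPA and kainate receptors had 14 of 21 genes below 0 (median −0.11), postsynaptic scaffold genes of glutamate synapses 19 of 21 (median −0.10), postsynaptic genes of GABA and glycine synapses 12 of 18 (median −0.09) and genes of transmitter synthesis and transport 15 of 24 (median −0.08), with 0 genes called in any of these 4 lists by edgeR.

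The second comparison asked whether prior BLZ945 treatment was accompanied by other receptor levels within a hemisphere. No member was called between BLZ945 and CTL mice in ipsilateral tissue (0 of 45, background 0%) or contralateral tissue (0 of 45, background 0%), nor in the interaction (0 of 45, background 0%) by edgeR, and DESeq2 called 0 members in each, where it called 0.00527%, 0% and 0% of all genes. At an unadjusted p under 0.05 there were 3, 3 and 0 members (6.67%, 6.67% and 0%), against 4.52%, 3.25% and 2.04% of all genes. The median log2 difference of the members was 0.004 ipsilaterally, which turned to −0.035 with the hemispheres of A3 exchanged, and 0.026 contralaterally. In ipsilateral tissue the group III receptor Grm8 had 20.6, 19.7, 17.8 and 20.4 CPM in BLZ945 mice and 16.9, 16.4, 15.03 and 13.1 CPM in CTL mice, which did not overlap (log2 difference 0.36, adjusted p = 0.958 by edgeR).

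Some subunits varied widely from mouse to mouse. Over the 40 members with at least 1 CPM and a count in every library, the SD of the log2 level over mice had a median of 0.19, against 0.16 for the 14230 genes that met the same limits. Gabrq, the GABA-A theta subunit known from hypothalamus and brainstem, had the largest SD, 1.40, and spanned 1.04 to 20.3 CPM per mouse. It was lowest in C3, at 0.695 CPM contralateral and 1.56 CPM ipsilateral, and highest in the ipsilateral hemisphere of C4 at 36.3 CPM. Its hemispheres differed as widely, with log2 ratios of ipsilateral over contralateral from −1.91 in B1 to 1.67 in C4 (SD 1.21, n = 8 mice). Grin2d, an NMDA receptor subunit of brainstem, diencephalon and interneurons, spanned 14.9 to 41.9 CPM per mouse and was also lowest in C3. Grm7, a presynaptic group III receptor, was the most even member with 49.9 to 56.5 CPM per mouse.

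Grm5, highly expressed in striatum, was highest in A4 (259 CPM contralateral, 288 CPM ipsilateral) and C4 (244 and 214 CPM), and these mice also had the highest sums of striatal neuron markers (4423 and 3652 CPM in A4, 3342 and 3301 CPM in C4, against 661 to 2822 CPM in the other mice). The sum of thalamic neuron markers was lowest in C3 (150.3 CPM contralateral), where Gabrq and Grin2d were lowest too, and highest in the ipsilateral hemisphere of B1 (1746 CPM), where Gabrq, at 4.604 CPM, was at its lowest among the CTL libraries. Choroid plexus markers ranged from 7.15 to 4482 CPM over the tissue libraries. Whether these sums reflect the regions a slice held was not tested, nor was their part in the spread of the members.

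**Figure D3:**
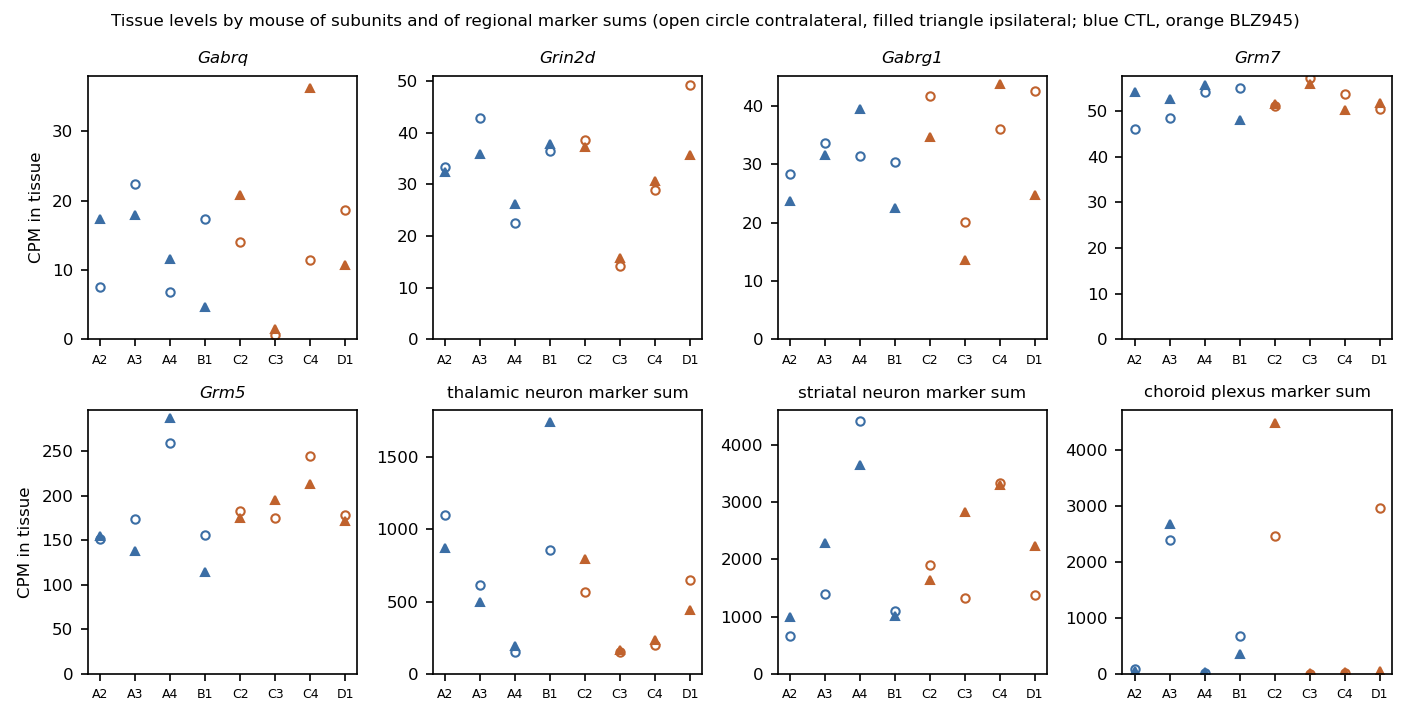
Levels in CPM by mouse of Gabrq, Grin2d, Gabrg1, Grm7 and Grm5 and of the summed thalamic, striatal and choroid plexus markers in tissue (linear axes from 0, open circles contralateral, filled triangles ipsilateral). C3 is lowest for Gabrq and Grin2d, and A4 and C4 are highest for Grm5 and for the striatal sum.

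CAMs were sorted as CD206+ cells, which separates them from neurons, so receptor subunit RNA in these libraries was set beside markers of other cells. Whether the CAMs themselves, or microglia in the sort, express any member was not tested. For the stroke experiment the study's methods state that the choroid plexus was removed before the sort. They also mention pooling of cells from BLZ945 mice, while the labels name 1 mouse for each library, so whether these libraries were pooled is not certain. Of the 47 members, 40 passed the filter on low counts in CAMs, and 13 of these would not have reached the minimum in the ipsilateral libraries alone. The members summed to 82.3 to 287 CPM in contralateral CAMs (median 121 CPM, n = 8) and 15.3 to 46.2 CPM in ipsilateral CAMs (median 25.9 CPM, n = 6), without overlap, against 6132 to 7407 CPM in tissue.

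Expressed as a percentage of the tissue level, the 41 members with at least 1 CPM in tissue had a median of 0.794% in CAMs, and the pan-neuronal markers a median of 0.541% and a range of 0.0564% (Syt1) to 4.72% (Elavl4). Of the members, 28 lay within this pan-neuronal range, 6 below it and 7 above it. Among those below were Grin1 (0.0346%), Grin2a, Grin2b, Gabrb2 and Gabrq, so that the NMDA subunits typical of forebrain neurons, with a joint sum of 0 to 1.25 CPM over the 14 libraries, were at or near 0. Among those above were Gabrr2 (39.0%), Gabrg1 (34.8%), Grm3 (18.03%), Grm8 (6.35%), Grin2c (6.34%) and Gabrb1 (5.34%). Against tissue of the same hemisphere, contralateral CAMs had 63.45%, 54.52%, 29.55%, 11.06%, 9.097% and 8.134% in this order. Ipsilateral CAMs had 4.857%, 4.258%, 0.312%, 0.203%, 2.098% and 1.482%. Elavl4 was at 6.774% contralateral and 2.207% ipsilateral. Grm8 averaged 3.51 CPM in contralateral CAMs of BLZ945 mice and 0.279 CPM in those of CTL mice. Astrocyte markers had a median of 24% and oligodendrocyte markers of 34.7% on the same scale. Oligodendrocyte precursor markers ranged from 0.42% (Neu4) to 51.7% (Cspg4). Endothelial markers ranged from 59.4% (Cdh5) to 1385% (Ly6c1), and pericyte and smooth muscle markers from 53.9% (Abcc9) to 6427% (Acta2). Which of these cells, neurons included, the members above the pan-neuronal range came from was not tested. The percentage for Gabrr2 rests on a tissue mean of only 2.1 CPM.

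**Figure D4:**
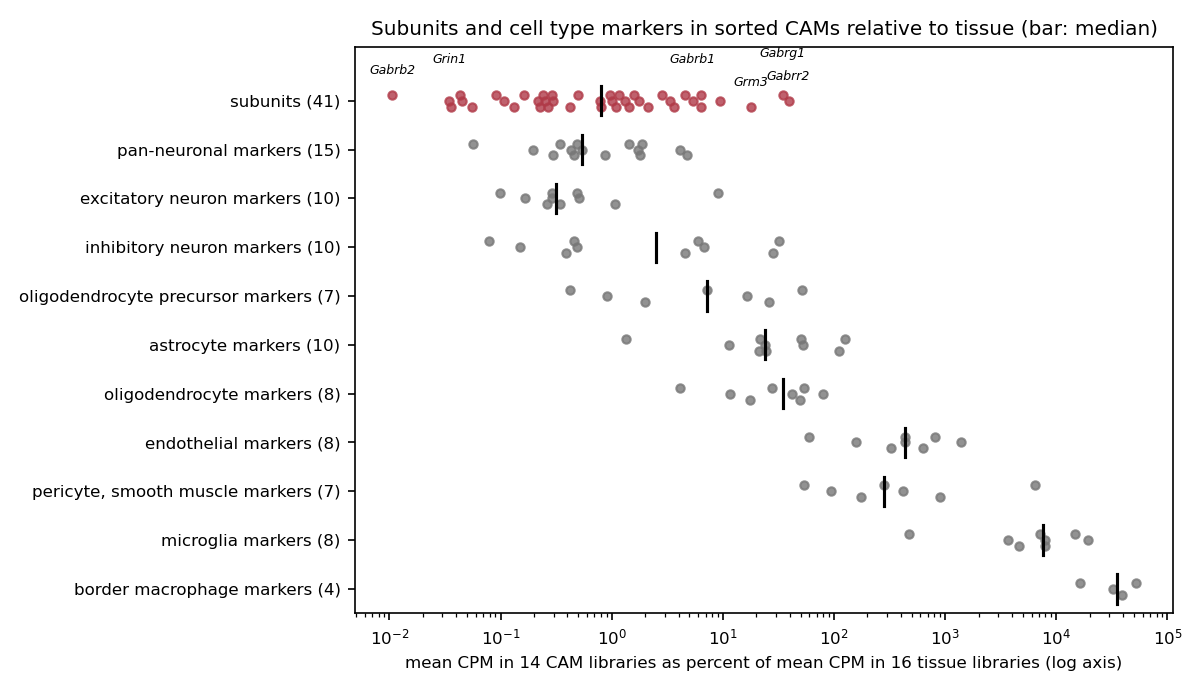
CAM level as a percentage of the tissue level for single members and for the genes of the marker lists (log axis, 1 point per gene, bars at medians). The members center on 0.794%, near the pan-neuronal markers at 0.541%, and 7 members lie above the highest pan-neuronal marker at 4.72%.

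In CAMs, a few subunits were called lower on the ipsilateral side, as were many other genes. In CTL mice, 1 of 40 members (2.5%) was called by edgeR, Grm3 (adjusted p = 0.0197), where 2.36% of all genes were called lower. In BLZ945 mice, 3 of 40 (7.5%) were called, namely Gabrg1 (adjusted p = 0.00591), Grm3 (adjusted p = 0.0112) and Gabrb1 (adjusted p = 0.0452), where 4.41% of all genes were called lower. In ipsilateral CAMs of BLZ945 mice these genes had 0, 3 and 4 counts, below the minimum of 7. They entered this comparison through the other libraries, so this share is a description only. In the average over both treatments, 8 of 40 members (20%) were called lower by edgeR, where 11.1% of all genes were, and 0 higher, where 3.91% were. Of these 8, 2 would not have reached the minimum in the ipsilateral libraries alone, Gria4 being one of them, so the count is a description and not support for a difference of the members as a group. The further members in the average included Gabbr1, Gria4, Gabra4 and Grik5 (adjusted p = 0.0141, 0.0405, 0.0456 and 0.0493). With the mouse as a block the counts were 0 in CTL (1.48% of all genes lower), 1 in BLZ945 (Gabrg1, 3.73%) and 3 in the average (Grm3, Gabrg1 and Gabrb1), which is 7.5% of the members beside 7% of all genes. DESeq2 called 8 members in CTL mice (20%), Grm3 among them, 4 in BLZ945 mice (10%) and 10 in the average (25%), all lower on the ipsilateral side, where it called 8.19%, 10.9% and 15.8% of all genes lower.

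The counts also rest on single mice, as Grm3 in CTL mice was not called without A2, A3 or A4, and Gabrg1 was the single member called in BLZ945 mice without C3 or C4. In the average, 4 members were called without A2, A4 or B1, 3 without C4 and 5 without D1, and Grm3 and Gabrg1 were among them in each case. The shares of all genes called in these fits are not given, so these counts cannot be set against a background.

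The promoters of the 3 members called in CAMs of a single treatment are shown because the CAM results turn on these genes, which all lie on chromosome 5. They come from RefSeq on build GRCm38.p6, which gives an entry for 32 of the 47 members, and span 250 bases before to 50 bases after the start of each gene, written 5′ to 3′. Capitals mark matches on either strand to 2 motifs that do not overlap each other, a partial site of the neuron-restrictive silencer element RE1 (GGACAGNGC) and the GC box (GGGCGG). The motifs were chosen after the sequences had been seen.
Grm3, chr5:9725303-9725602, minus strand: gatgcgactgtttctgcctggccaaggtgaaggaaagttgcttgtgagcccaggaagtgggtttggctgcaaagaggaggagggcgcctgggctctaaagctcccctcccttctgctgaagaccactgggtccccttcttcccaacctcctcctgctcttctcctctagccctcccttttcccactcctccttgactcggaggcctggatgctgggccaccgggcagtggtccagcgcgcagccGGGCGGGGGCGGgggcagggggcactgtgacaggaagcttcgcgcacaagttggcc
Gabrg1, chr5:70842568-70842867, minus strand: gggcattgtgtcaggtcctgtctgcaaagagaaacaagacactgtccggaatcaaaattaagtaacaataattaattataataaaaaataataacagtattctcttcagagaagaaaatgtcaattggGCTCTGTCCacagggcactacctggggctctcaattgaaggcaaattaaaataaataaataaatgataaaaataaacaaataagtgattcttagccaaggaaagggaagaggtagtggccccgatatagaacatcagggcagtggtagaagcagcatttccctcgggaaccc
Gabrb1, chr5:71657671-71657970, plus strand, the first of its 2 entries: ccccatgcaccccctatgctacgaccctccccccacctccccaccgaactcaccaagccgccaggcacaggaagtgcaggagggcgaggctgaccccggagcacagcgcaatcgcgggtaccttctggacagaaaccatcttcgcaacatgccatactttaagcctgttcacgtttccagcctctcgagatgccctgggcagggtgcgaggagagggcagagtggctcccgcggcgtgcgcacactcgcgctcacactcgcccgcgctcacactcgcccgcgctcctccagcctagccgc

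The Grm3 promoter held 2 adjoining GC boxes, from position −6 relative to the start, and had a GC content of 63.7%. That of Gabrg1 had a GC content of 38.3%, below the median of 52.7% over all promoters, and held 1 partial RE1 site, from position −122 relative to the start. The Gabrb1 promoter, with a GC content of 66%, held neither motif. A GC box was found in 35.7% of all 32851 promoters of this length and the partial RE1 site in 1.91%. Among the 39 promoter entries of members the partial site was found in those of Gria2, Gabrr2 and Gabrg1. Gabrg1 and Gabrb1 belong to a cluster of GABA-A subunit genes with Gabra2 and Gabra4 on chromosome 5. Gabra4 starts next to Gabrb1 on the opposite strand, and since the strand setting of the counting is not stated, reads of the pair near their starts may not be told apart.

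Grm3 had 25.8, 47.4, 44.8 and 6.22 CPM in contralateral CAMs of CTL mice A2, A3, A4 and B1 and 0, 0 and 1.00 CPM in ipsilateral CAMs of A2, A4 and B1. In BLZ945 mice it had 22.4, 14.7, 16.8 and 6.48 CPM contralateral and 0, 0 and 0.291 CPM in ipsilateral CAMs of C3, C4 and D1. The hemispheres did not overlap in either group, and 4 of the 6 ipsilateral libraries had no read. Pooled over libraries, the contralateral level was 84.7-fold higher in CTL mice (95% interval 45.9 to 177, 10 ipsilateral counts) and 135-fold higher in BLZ945 mice (46.1 to 659, 3 ipsilateral counts), where the intervals cover counting error only. All ipsilateral counts came from B1 and D1, and without these libraries the contralateral level was at least 177-fold and at least 85-fold higher, taking 3 counts over the remaining ipsilateral libraries as the upper limit.

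Gabrg1, a gamma subunit known from glia and some subcortical regions, had 35.8, 28.8, 38.9 and 14.4 CPM contralateral and 0.12, 4.34 and 3.01 CPM ipsilateral in CAMs of CTL mice. In BLZ945 mice it had 4.87, 9.81, 2.54 and 8.99 CPM contralateral and no read in the 3 ipsilateral libraries. Within each treatment the hemispheres did not overlap. The contralateral level was 12-fold higher in CTL mice (95% counting interval 9.39 to 15.6) and at least 61.2-fold higher in BLZ945 mice, taking 3 counts over the 3 ipsilateral libraries as the upper limit. Without the ipsilateral library of D1 this bound was 38.4-fold. The contralateral values of the treatments did not overlap either, at 14.4 to 38.9 CPM in CTL and 2.54 to 9.81 CPM in BLZ945 CAMs, but this difference did not pass (log2 −2.15, adjusted p = 0.759 by edgeR), nor did the interaction (adjusted p = 0.992).

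Gabrb1, a beta subunit, had 30.8, 9.04, 6.76 and 2.09 CPM in contralateral and 0.454, 0 and 0 CPM in ipsilateral CAMs of BLZ945 mice, without overlap. In CTL mice it had 22.6, 12.7, 11.6 and 10.8 CPM contralateral and 0.12, 12.8 and 0.804 CPM ipsilateral. The CTL hemispheres overlapped because of A4, whose ipsilateral level of 12.8 CPM was above 3 of the 4 contralateral values. The contralateral level was 3.37-fold higher in CTL mice (95% counting interval 2.76 to 4.16) and 76.9-fold higher in BLZ945 mice (29.8 to 283). The ipsilateral library of A4 held 106 of the 115 ipsilateral counts in CTL mice, and without it the fold was 29.7 (15.5 to 65.2). In BLZ945 mice the fold was 41.0 (15.7 to 152) without the contralateral library of C2 and 48.3 (18.7 to 178) without the ipsilateral library of D1.

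Gabbr1 was detected in all 14 CAM libraries. It had 23.6, 17.6, 36.5 and 22.5 CPM in contralateral and 3.59, 6.03 and 9.34 CPM in ipsilateral CAMs of CTL mice, and 19.5, 21.6, 12.6 and 14.5 CPM and 10.3, 6.86 and 8.82 CPM in BLZ945 mice. The hemispheres did not overlap in either group, with a log2 difference of −1.31 in the average (SE 0.33, adjusted p = 0.0141 by edgeR). Of the other members called in the average, Gria4 ranged from 0 to 4.11 CPM contralateral and 0 to 0.114 CPM ipsilateral, Gabra4 from 0.27 to 39.5 CPM and 0 to 5.68 CPM, and Grik5 from 0.541 to 16.7 CPM and 0 to 1.48 CPM. These 3 overlapped between hemispheres, with a few libraries holding most of their counts.

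Several marker lists of other cells also had lower sums in ipsilateral CAMs, while others did not. Contralateral libraries had 384 to 2577 CPM of astrocyte markers against 182 to 837 CPM in ipsilateral ones, 708 to 6879 CPM of oligodendrocyte markers against 212 to 760 CPM, 1501 to 5115 CPM of endothelial markers against 149 to 345 CPM, and 64.3 to 279 CPM of pan-neuronal markers against 16.4 to 62.1 CPM. Endothelial and pan-neuronal sums did not overlap between hemispheres. Pericyte and smooth muscle markers did not overlap either, at 1052 to 5336 CPM contralateral and 61.37 to 302.5 CPM ipsilateral. The same held for striatal neuron markers, at 48.23 to 283 CPM and 6.399 to 33.39 CPM. Sums of oligodendrocyte precursor, excitatory, inhibitory, hippocampal and cerebellar neuron and red blood cell markers overlapped. Choroid plexus markers summed to 31.1 to 39580 CPM contralateral (median 3540 CPM) and 0.478 to 1409 CPM ipsilateral (median 272 CPM). Border macrophage markers were at 1621 to 5945 CPM contralateral and 4335 to 8697 CPM ipsilateral, and microglial markers at 8285 to 24710 CPM and 16820 to 35310 CPM. The genes of the thalamic list summed to 254 to 462 CPM contralateral and 352 to 465 CPM ipsilateral, with overlap. In tissue, the median thalamic sums of 591 and 470 CPM lay far below the pan-neuronal medians of 12550 and 11960 CPM. In CAMs the thalamic medians, 377 and 410 CPM, lay above the pan-neuronal ones, 133 and 36.9 CPM. The thalamic list can therefore not be read as thalamic neurons in CAMs. T and B cell markers were at 45.7 to 202 CPM and 53.9 to 169 CPM. Fibroblast markers were at 36.5 to 439 CPM and 22.5 to 411 CPM, each contralateral first and with overlap. The part of these cells in the receptor calls was not tested.

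Set against astrocyte markers, these 4 members had different ratios. Per 1000 CPM of astrocyte markers, Grm3 had a median of 15.1 CPM in contralateral and 0 CPM in ipsilateral CAMs, against 9.7 to 17.4 CPM in tissue, and Gabrb1 had 8.1 and 0.638 CPM against 22.4 to 33.1 CPM in tissue. Gabrg1 had 15.2 and 0.105 CPM against 2.25 to 7.41 CPM, so that its contralateral median was above the tissue range. Gabbr1 had 14.5 and 23.9 CPM against 140 to 190 CPM in tissue. With library sizes replaced by the astrocyte sum, edgeR called 0 members in CTL and 0 in BLZ945 mice and 4 in the average (Grm3, Gabrg1, Gabrb1 and Gabra4). In that average the median log2 fold change was −0.521 for the members and 1.224 for all genes. At an unadjusted p under 0.05 by edgeR there were 9 of 40 members and 9793 of 18297 genes. The share of all genes called is not given for this scaling, so the 4 calls have no background beside them. This scaling was added after the data were seen.

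**Figure D5:**
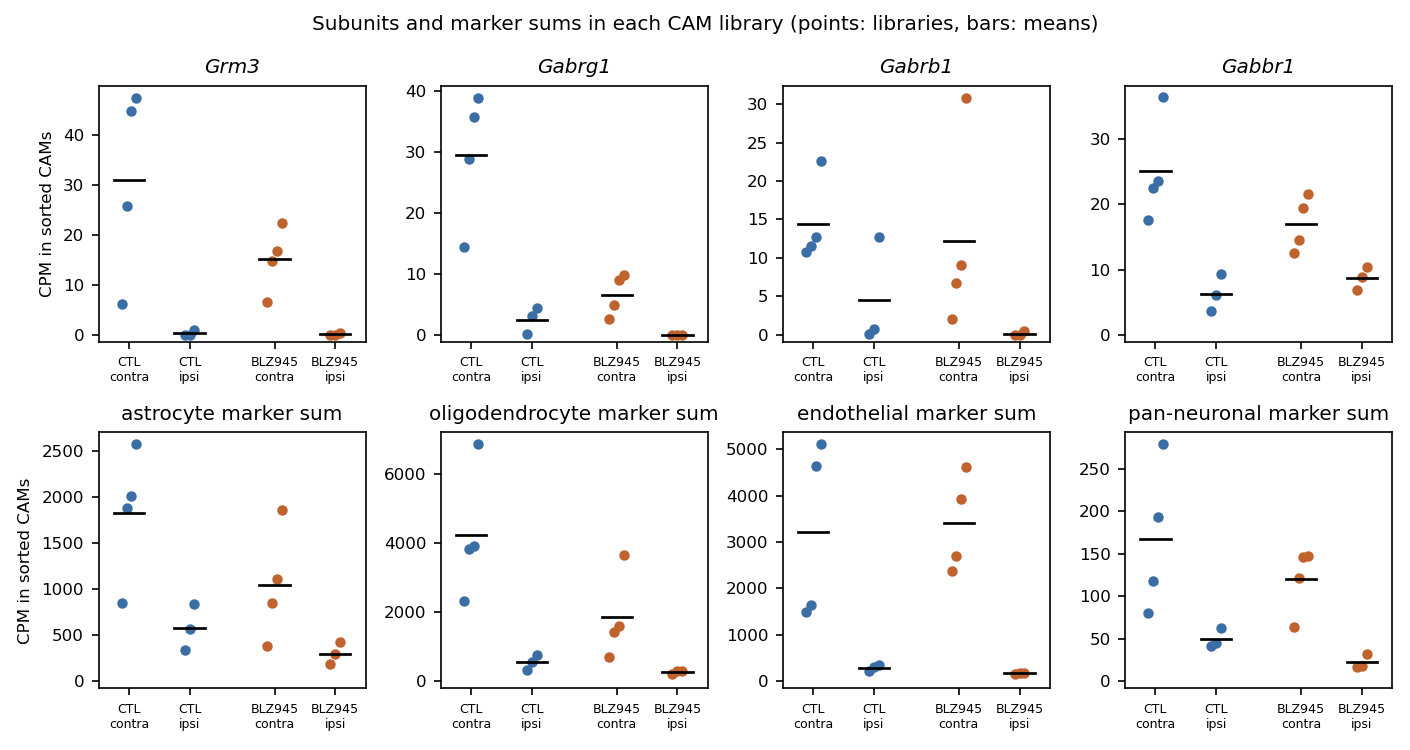
CAM levels in CPM of Grm3, Gabrg1, Gabrb1 and Gabbr1 and of summed astrocyte, oligodendrocyte, endothelial and pan-neuronal markers in the 14 libraries, by treatment and hemisphere. Grm3 is at 0 to 1.00 CPM in the 6 ipsilateral libraries and at 6.22 to 47.4 CPM in the 8 contralateral ones, and the endothelial sums separate in the same direction.

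Between BLZ945 and CTL mice, no member was called in ipsilateral CAMs (0 of 40, background 0%), in contralateral CAMs (0 of 40, background 0%) or in the interaction (0 of 40, background 0%) by edgeR. At an unadjusted p under 0.05 there were 6, 5 and 8 members (15%, 12.5% and 20%), against 5.65%, 6.19% and 4.98% of all genes. DESeq2 called 1 member, Gabrg1, lower in ipsilateral CAMs of BLZ945 mice, where it called 0.7% of all genes in either direction, and 0 in contralateral CAMs (0.24%). Among the genes of transmitter synthesis and transport, edgeR called the glutamate transporter Slc1a1 (log2 −4.47, adjusted p = 0.0219) and the glutamine transporter Slc38a3 (log2 −3.40, adjusted p = 0.0243) lower in ipsilateral CAMs of CTL mice, 2 of 24 genes, and 4 of 24 in BLZ945 mice, among them these 2 and the GABA transaminase Abat (log2 −4.30, adjusted p = 0.00257). Of the 19 auxiliary subunits tested 0 were called in either treatment, of the 21 glutamate scaffold genes 0 in CTL and 1 in BLZ945 mice (Arc), and of the 15 GABA and glycine genes 0 in CTL and 2 in BLZ945 mice (Glrb and Lhfpl4), all lower on the ipsilateral side. In the same comparisons 2.36% and 4.41% of all genes were called lower.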

How the data were processed

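Per the labels and the study's methods, RNA of whole tissue slices or sorted CAMs (Ly6C-, Ly6G-, CD11c-, CD45+, CD11b+, CD206+) was made into libraries and read from 1 end. The submitters' processing notes name bcl2fastq 2.20, STAR 2.7.11a, featureCounts 2.0.8 and DESeq2 1.46.0, without order. The deposited values are raw counts per gene, 1 table for tissue and 1 for CAMs, that the authors made without normalization. Strand setting and duplicate removal are not given in the sources used here, so reads of overlapping genes may be shared. The 2 tables were fitted separately.

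Here, edgeR 4.0.16 in R 4.3.3 (quasi-likelihood, two-sided, TMM scaling, 4 group means) was run on the 18968 tissue genes summing to 8 counts or more and the 18297 CAM genes summing to 7 or more. A call needed a Benjamini-Hochberg adjusted p under 0.05 over all genes and a log2 fold change beyond 0.59. The average over both treatments in CAMs was added after the data were seen. CPM are counts scaled to a library total of 1000000. The fit was tested on simulated data. Alternatives were DESeq2 1.42.0, its size factors, other filters, scaling by pan-neuronal or astrocyte markers, each mouse left out, all 16 CAM libraries and A3 exchanged.

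Members and lists were chosen with earlier results of these data known. Values by library were to be given for members called in tissue, those with the highest level or the largest change in each subfamily, and those with at least 1 CPM in CAMs. Gria4, Grin1, Grin2a, Gabra3, Gabrq and Grm7 were named outside this rule after their values were seen. Same-numbered samples come from the same mouse. Their deviations from the group means correlated with a median of 0.436 (0.214 to 0.645, 8 mice) in tissue and 0.122 (0.045 to 0.189, 6 mice) in CAMs, against −0.065 and −0.034 for other mice. No libraries were duplicates within sampling noise. Results of a few genes are not reported here.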

Additional observations from a re-analysis of the deposited data

Results flagged for a closer look

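In groups of 4 mice, 14 of 118 sets of values held 1 mouse whose gap to its nearest neighbour, divided by the range of the group, was above Dixon's 95% critical ratio, where chance gives about 1 set in 20. In tissue these were Gria1 in contralateral CTL tissue (A2, 610 CPM, ratio 0.846), Gria3 in ipsilateral BLZ945 tissue (C3, 261 CPM, ratio 0.929), Grik4 in ipsilateral BLZ945 tissue (C4, 31.7 CPM, ratio 0.851), Grik5 in contralateral CTL tissue (A4, 320 CPM, ratio 0.837) and Grm5 in contralateral BLZ945 tissue (C4, 244 CPM, ratio 0.900). In contralateral CAMs of CTL mice they were Gabra2 (A4, 4.87 CPM, ratio 0.896), Gabra4 (A4, 39.5 CPM, ratio 0.886), Gria3 (A4, 5.87 CPM, ratio 0.997), Gabrb1 (A2, 22.6 CPM, ratio 0.832) and Grm8 (B1, 1.02 CPM, ratio 0.906). In contralateral CAMs of BLZ945 mice they were Gabra2 (C2, 3.24 CPM, ratio 0.833), Gabra5 (C3, 3.16 CPM, ratio 0.872), Gria3 (D1, 6.48 CPM, ratio 0.918) and Grik5 (C4, 16.7 CPM, ratio 0.924). Of the 9 CAM values, 3 belonged to A4.

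The share of Grm2 in the sum of Grm2 and Grm3 per length stood out because every mouse of one treatment moved one way and every mouse of the other the opposite way. It moved by −4.04 percentage points from the contralateral to the ipsilateral side in BLZ945 mice and by 1.67 points in CTL mice, and the difference was not tested. The pattern depends on A3, whose tissue labels and column names disagree: with its hemispheres exchanged the CTL mean was −0.172 points and 3 of 4 CTL mice moved upward.

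Relative to their size, the ipsilateral CAM libraries that were left out had a higher summed member level than any CAM library used. The study left them out for low alignment of their reads. Members all but absent from tissue rose as well when these libraries were added. Grm6 went from 101% to 28230% of its tissue level and Gabrp from 66.0% to 20290%. These sums can therefore not be read as receptor RNA of cells in the sort, and their source was not tested. The members summed to 3903 CPM in A3 and to 2883 CPM in C2, against at most 287 CPM in the libraries used. A3 held 211 member counts of 54055 over 36 members, of which Grin2a had the most, 26. C2 held 159 of 55155 over 28 members, of which Gabrg1 had the most, 27. Pan-neuronal markers were at 1110 and 707 CPM in them and border macrophage markers at 573.5 and 1614 CPM.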

How the results depend on the processing

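No member was called in tissue under any alternative that kept the fold change threshold. The replicate block without that threshold gave 2 members in BLZ945 mice and 8 in the average, with the hemispheres of A3 as labelled. In CAMs, the count in CTL mice (1) became 8 with DESeq2, 2 with DESeq2 size factors, 2 with edgeR's own expression filter, and 0 with the replicate block, with all 16 libraries or with astrocyte scaling. The count in BLZ945 mice (3) became 1 with the replicate block and 0 with all 16 libraries or astrocyte scaling. The count in the average (8) became 3 with the replicate block, 4 with astrocyte scaling and 1 with all 16 libraries, and between treatments in ipsilateral CAMs DESeq2 gave 1. The block changed no other call. Leaving out 1 mouse gave 0 to 1 members in CTL CAMs, 1 to 3 in BLZ945 CAMs and 3 to 7 in the average. Apart from DESeq2 and the block, the shares of all genes called in CAMs under these alternatives are not given.

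Medians are over members with at least 1 CPM. With the hemispheres of A3 exchanged the median of the interaction moved from −0.026 to −0.11 and that of BLZ945 against CTL in contralateral tissue from 0.026 to 0.073, and Gabrb1 (0.019), Grin2b (0.009) and Grm4 (−0.018) changed sign in the average. With pan-neuronal scaling the medians became 0.071 in BLZ945 mice, 0.023 in the average, 0.075 in the interaction and −0.073 between treatments contralaterally, and the sign changed for Gabrb1 (0.023), Gria1 (0.021), Grid1 (0.046), Grik4 (0.004), Grik5 (0.038) and Grin2b (0.024). Leaving out 1 mouse gave a BLZ945 median of −0.134 (without C3) to −0.087, a log2 fold change of −0.311 to 0.194 for Gabrr2 and of −0.045 to 0.121 for Grm4. The median CAM percentage rose from 0.794% to 8.79% with all 16 libraries. The causes were not tested, apart from the 2 degraded libraries that the last alternative adds. In all, 112 tissue counts, 60 CAM counts and 85 medians stayed as they were in size class, and 2, 23 and 7 did not. For single members only the sign and the call were compared, and 242 values kept both while 13 did not. Their size could still change, as for Gabbr1, which ran from −0.149 to −0.004 over the alternatives without counting as changed. Of the pooled CAM folds without single libraries, added after the data were seen, 26 lay within the counting interval of the full value and 6 did not. With the hemispheres of A3 exchanged, also added, the Grm2 share in CTL mice moved from 1.67 to −0.172 points. Depth also limits the CAM values, where a member at 0 may be present at up to 0.271 to 0.406 CPM.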
